A study of Mus musculus with 22 samples.

Results

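Genes on mouse chromosome 6 were followed across 22 RNA-seq libraries of mouse embryonic stem (ES) cells in which the Dux cluster had been edited or left intact. The members are the 392 genes annotated on chromosome 6 with a mean of at least 8 CPM over the 22 libraries, out of 3133 chromosome 6 genes and 47729 genes in all. CPM are counts scaled to the library's total count. The members were chosen by this mean level and their position. A total of 406 chromosome 6 genes reached that floor, and 14 of them were left out by name (imprinted, pluripotency and germline genes, mitochondrial ribosomal and respiratory chain genes and the Hoxa cluster). Among the members, 372 were protein coding, 15 were processed pseudogenes, 3 were lincRNAs and 2 were other pseudogenes. The genes just inside the floor were A2m (8.002 CPM) and Rbpj-ps3 (8.014 CPM), and the genes just outside it were Tmtc1 (7.96 CPM) and Bola3 (7.999 CPM). Chromosome 6 was picked with a raised level in some of these libraries already known. The size of that shift and the counts of members called are therefore a description. No test over the members as a set is used for support, and the outlier screen near the end only restates the shift.

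The untreated set held 3 libraries of E14 cells, a mouse ES cell line (titled E14-chen), 3 Dux-KO clones (15, 22 and 52) and 4 Dux n=1 clones (titled Duxnto1; 17, 22, 31 and 40), with the edited clones made by CRISPR-Cas9. The treated set held 2 libraries each of WT, Dux-KO22 (KO22) and Dux-N22 (N22) cells, given either DMSO or GSK-3484862 (GSK) for 3 days. The GSK dose is given as 1 uM in the treatment protocol and as 2 uM in the design text. KO22 and N22 were read as 1 clone each, so genotype and clone cannot be told apart in the treated set, and no label links them to the untreated clones of the same number. In the untreated set each edited library is a clone of its own. No separate cultures are named in the labels, so the p-values reflect the spread among libraries alone, and that spread may be technical.

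Dux encodes a homeobox transcription factor that activates genes of the early cleavage embryo, and the cluster lies on chromosome 10, not on chromosome 6. ES cell lines are known to gain whole chromosomes or parts of them in culture and during cloning, and an extra copy usually raises the RNA of most genes on it. Some genes hold their RNA level despite a change in copy number. GSK-3484862 leads to degradation of DNMT1, the enzyme that copies DNA methylation onto the new strand at replication, and genes silenced by promoter methylation can then be expressed. DNA copy number was not measured in this series, so a change in copy number was not tested.

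Total counts ranged from 15803194 to 19427794 per library. The labelled cell type was checked against its markers: 8 ES cell genes summed to 4629 to 5789 CPM in the untreated and DMSO libraries and to 4095 to 4258 CPM with GSK. Primitive endoderm genes summed to 4.59 to 16.5 CPM and trophoblast genes to 15.9 to 36.9 CPM. The 6 fibroblast genes summed to 9.21 to 10.7 CPM in E14, 21.04 to 53.7 CPM in Dux-KO, 13.8 to 29.6 CPM in Dux n=1, 19.1 to 21.5 CPM in WT with DMSO and 37.4 to 42.1 CPM in KO22 with DMSO. Thy1 carried most of that sum (8.48 to 50.1 CPM), and the fibroblast collagen and matrix genes Col3a1, Dcn and Postn were at most 0.217, 0.127 and 0.418 CPM.

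Some libraries went against their labels or stood apart. Zscan4 family genes, targets of Dux, had 0 and 0 counts in KO22 with DMSO, 5 in Dux-KO clone 15 and 22 in Dux-KO clone 52, but 49 in the library labelled Dux-KO clone 22. That library also had the highest Duxf3 count of the untreated and DMSO libraries, at 5. Unedited E14 had 1, 0 and 0 and WT with DMSO 1 and 1, so Duxf3 counts this low do not tell edited from unedited cells. The library labelled Dux n=1 clone 40 had 5 Zscan4 counts, against 12 to 51 in the other Dux n=1 clones and 86 to 92 in E14. Of these libraries, the one labelled Dux-KO clone 22 lacked the chromosome 6 shift of the other Dux-KO clones and the one labelled Dux n=1 clone 40 had it, as described below. The Zscan4 counts did not split all libraries in the same way, since Dux n=1 clone 31 had 12 counts without the shift and Dux-KO clone 52 had 22 with it. The cause was not tested.

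Genes along the chromosome were divided into 3 stretches, a number set in advance. The 5 promoters printed here stand at the edges of the stretches or belong to members with the most unusual responses. Plekha8 is the second member of the middle stretch, Tmf1 is the first member of the right stretch, Aass and Ldhb are members that were lower where their neighbours were higher, and Prrt3 had the highest response to GSK in WT. They were chosen after their values were seen. Each run is the 250 bases before the start of the gene from RefSeq (GRCm38.p6), on the gene's strand, with each CG, the dinucleotide that DNMT1 methylates, in capitals. None overlaps an annotated exon.
Plekha8: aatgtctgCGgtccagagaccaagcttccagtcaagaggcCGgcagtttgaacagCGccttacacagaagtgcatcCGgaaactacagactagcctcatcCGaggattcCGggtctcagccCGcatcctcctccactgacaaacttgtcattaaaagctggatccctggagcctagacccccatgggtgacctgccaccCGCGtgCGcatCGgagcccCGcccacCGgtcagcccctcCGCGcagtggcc
Tmf1: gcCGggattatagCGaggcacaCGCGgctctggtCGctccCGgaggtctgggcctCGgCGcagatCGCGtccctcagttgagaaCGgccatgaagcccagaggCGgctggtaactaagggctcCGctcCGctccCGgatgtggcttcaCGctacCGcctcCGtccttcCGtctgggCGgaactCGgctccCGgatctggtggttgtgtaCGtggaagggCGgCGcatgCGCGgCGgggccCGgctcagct
Aass: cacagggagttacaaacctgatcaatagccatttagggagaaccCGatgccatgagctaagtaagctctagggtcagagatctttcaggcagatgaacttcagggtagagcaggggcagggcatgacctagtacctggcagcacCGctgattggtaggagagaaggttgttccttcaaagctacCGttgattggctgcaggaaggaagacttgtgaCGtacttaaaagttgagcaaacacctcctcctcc
Ldhb: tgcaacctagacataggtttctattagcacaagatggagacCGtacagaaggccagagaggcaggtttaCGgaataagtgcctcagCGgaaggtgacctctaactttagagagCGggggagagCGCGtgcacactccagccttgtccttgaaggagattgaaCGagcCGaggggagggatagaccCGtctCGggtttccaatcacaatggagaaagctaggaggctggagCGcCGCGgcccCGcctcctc
Prrt3: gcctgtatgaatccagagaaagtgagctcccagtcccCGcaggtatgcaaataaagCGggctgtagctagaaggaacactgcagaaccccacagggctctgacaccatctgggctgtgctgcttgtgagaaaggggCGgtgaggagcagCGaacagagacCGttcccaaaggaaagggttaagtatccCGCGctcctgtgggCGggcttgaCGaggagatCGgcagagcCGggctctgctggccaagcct
The Plekha8 run is chr6:54594861-54595110 (plus strand) and holds 15 CG. The Tmf1 run is chr6:97179125-97179374 (minus strand) and holds 29. The Aass run is chr6:23132987-23133236 (minus strand) and holds 4, and 5.75% of the windows of the same length before genes at 8 CPM or more hold as few or fewer. The Ldhb run is chr6:142507958-142508207 (minus strand) and holds 14. The Prrt3 run is chr6:113501932-113502181 (minus strand) and holds 11, with 24.9% of windows holding as few or fewer.

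The raised level was present in 3 of 7 untreated edited clones and in all 4 KO22 libraries. Members took 4.77% of all counts in Dux-KO clone 15, 4.80% in Dux-KO clone 52 and 4.67% in the library labelled Dux n=1 clone 40. The library labelled Dux-KO clone 22 gave them 3.56%, below E14 (3.68% to 3.73%), and in Dux n=1 clones 17, 22 and 31 they took 3.64% to 3.76%. KO22 stood at 4.74% in both DMSO libraries and at 4.61% and 4.62% with GSK, against 3.86% and 3.87% in WT with DMSO and 3.62% and 3.64% in WT with GSK. N22 stood at 3.67% and 3.69% with DMSO and at 3.45% and 3.46% with GSK. The libraries thus fell into a group between 4.61% and 4.80% and a group between 3.45% and 3.87% with no library in between.

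The shift per library was taken as the median, over members, of the log2 ratio of (CPM + 1) to the reference mean (E14 for the untreated set, WT with DMSO for the treated set), less the same median over 8775 genes of the other 18 autosomes at 8 CPM or more. It was 0.26 in Dux-KO clone 15, 0.31 in Dux-KO clone 52, and 0.30 in the library labelled Dux n=1 clone 40. The highest median of any other autosome in those libraries was 0.10, 0.10 and 0.07. For the library labelled Dux-KO clone 22 it was -0.10, inside the range of the other autosomes (-0.21 to 0.12). In Dux n=1 it was -0.06, -0.03 and -0.08 for clones 17, 22 and 31. KO22 stood at 0.30 and 0.35 with DMSO, where the other autosomes lay between -0.05 and 0.05, and 0.31 and 0.32 with GSK. N22 had -0.06 in all 4 libraries, and WT with GSK had 0.01 and -0.02. Because genes differ in GC content and libraries in their GC response, the comparison was repeated against genes of the same GC decile. That gave 0.38, 0.41 and 0.39 in the 3 raised untreated libraries while the library labelled Dux-KO clone 22 was at -0.02 and Dux n=1 clones 17, 22 and 31 were at -0.02, -0.04 and -0.02.

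**Figure D1:**
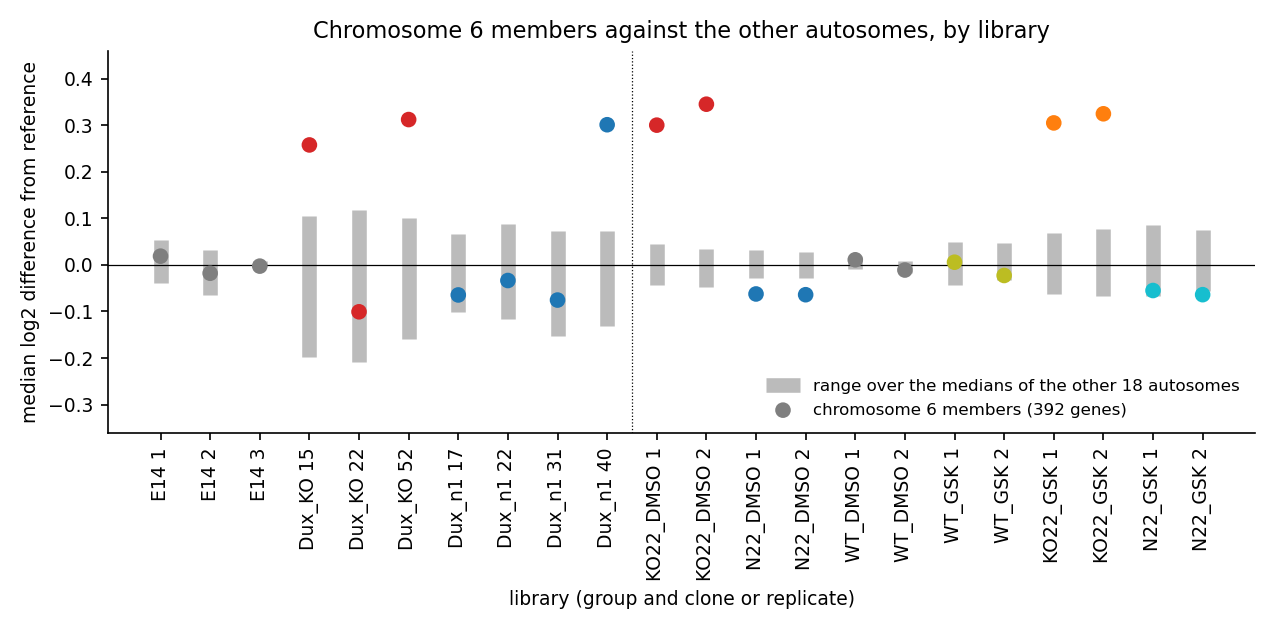
Shift of chromosome 6 in each library (log2, vertical axis) as points, beside the range of the medians of the other 18 autosomes as grey bars. Dux-KO clones 15 and 52, the library labelled Dux n=1 clone 40 and the 4 KO22 libraries lie at 0.26 to 0.35, above every other autosome of the same library.

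As group means, the shift was 0.323 ± 0.032 in KO22 with DMSO and 0.315 ± 0.014 in KO22 with GSK (SD, n = 2 each), -0.063 ± 0.001 and -0.059 ± 0.006 in N22 (SD, n = 2 each) and -0.008 ± 0.020 in WT with GSK (SD, n = 2). In the untreated set the clones of a genotype did not share it, and the mean was 0.156 ± 0.224 for Dux-KO (SD, n = 3) and 0.032 ± 0.180 for Dux n=1 (SD, n = 4). The Dux-KO mean became 0.285 without the library labelled clone 22 and 0.0785 without clone 52, and the Dux n=1 mean became -0.0578 without the library labelled clone 40.

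The shift covered part of the chromosome, not all of it. In windows of 15 Mb by gene start, Dux-KO clone 15 was at 0.58 between 30 and 45 Mb (46 members), 0.10 between 60 and 75 Mb (25 members), 0.08 between 75 and 90 Mb (54 members) and 0.53 between 120 and 135 Mb (66 members), relative to genes of equal GC content. Dux-KO clone 52 read 0.51, 0.01, 0.05 and 0.58 in the same windows, and the library labelled Dux n=1 clone 40 read 0.43, 0.01, 0.09 and 0.49. KO22 with DMSO, replicate 1, read 0.46, -0.12, -0.02 and 0.41. Both ends of the chromosome were therefore raised and its middle was near the level of other chromosomes. The window from 0 to 15 Mb holds 17 members and is thin.

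**Figure D2:**
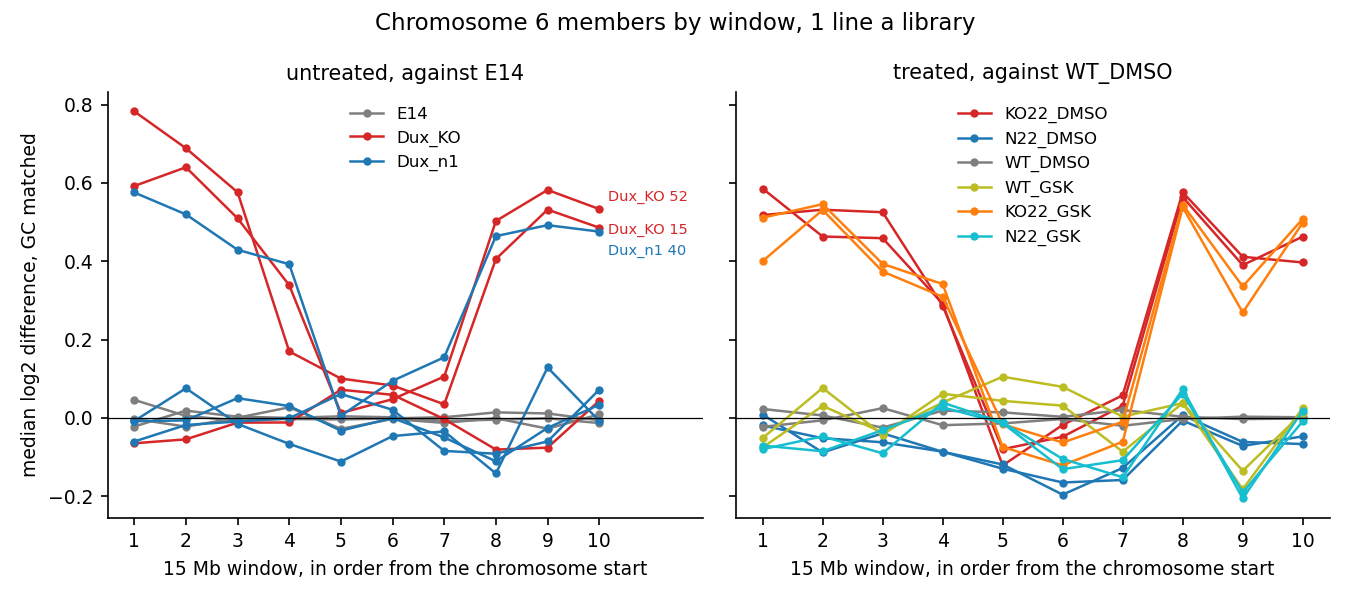
Median log2 difference of the members in 15 Mb windows along chromosome 6, relative to genes of equal GC content, for each library. The raised libraries are high at both ends and near 0 between 60 and 90 Mb, and no other library reaches 0.25 in a window.

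Windows of the same size on the other autosomes gave the background. Of the 9 windows on chromosome 6 with at least 20 members, 6 were at or above 0.25 in Dux-KO clone 52, in the library labelled Dux n=1 clone 40 and in each KO22 library, and 5 were in Dux-KO clone 15. None was in the other 15 libraries. Of the 141 windows elsewhere, none was at or above 0.25 in those libraries except Dux-KO clone 15, which had 2. Dux n=1 clones 22 and 31, without a raised chromosome 6, had 1 and 2 such windows elsewhere, the highest at 0.28 and 0.56. The lowest windows elsewhere stood at -0.83 in Dux n=1 clone 31 and -0.42 in Dux-KO clone 15. Differences of this size therefore occurred on other chromosomes too.

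The edges were placed by least squares on the mean of the 2 KO22 DMSO libraries, taking members in order of their start. The fit always places 2 edges, in raised and other libraries alike, and other numbers of edges were not tried. The left stretch of 112 members ran from 3.50 to 52.8 Mb and ended at Tax1bp1 (52713729 to 52766780), an autophagy receptor for ubiquitinated cargo. The middle stretch of 109 members ran from Scrn1 (54501173 to 54566489), which encodes secernin 1, to Eogt (97110024 to 97149182), an O-GlcNAc transferase of the endoplasmic reticulum. The right stretch of 171 members began at Tmf1 (97152997 to 97179122), which encodes a Golgi protein, and ran to 149 Mb. The gap at the left edge was 1.73 Mb wide, and 4 of the 25 genes starting in it had a mean of at least 1 CPM. At the right edge only 3.82 kb lay between Eogt and Tmf1. In the KO22 DMSO mean the stretches stood at 0.49, -0.07 and 0.48, and the steps took up 22.8% of the variance between members.

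Each library was also given edges of its own. The left edge came out between Tax1bp1 and Scrn1 in Dux-KO clones 15 and 52, the library labelled Dux n=1 clone 40 and both KO22 DMSO libraries, and lay 1 member further, between Scrn1 and Plekha8, in both KO22 GSK libraries. The right edge came out between Eogt and Tmf1 in the library labelled Dux n=1 clone 40, both KO22 DMSO libraries and KO22 GSK replicate 2. It lay between Uba3 and Arl6ip5 (97.2 Mb) in KO22 GSK replicate 1 and between Kbtbd8 (95.1 Mb) and Suclg2 (95.5 Mb) in Dux-KO clones 15 and 52. Those fits took up 12.9% of the variance in Dux-KO clone 15, 24.1% in Dux-KO clone 52, 25.2% in the library labelled Dux n=1 clone 40 and 18.5% to 22.9% in KO22. Fits to N22 with DMSO, which lacked the raised level, took up 6.78% and 6.26%. Their right edge came out between Eogt and Tmf1 in replicate 1 and between Tmf1 and Uba3 in replicate 2. The left edge lay between Scrn1 and Plekha8 in replicate 2, but between Capg and Tgoln1 (72.6 Mb) in replicate 1. Edges at or beside those of KO22 were thus also placed in libraries without the raised level. Fits to all other libraries took up 1.21% to 4.67%.

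The genes on either side of the edges, chosen after the edges were placed, were looked at first. Tax1bp1 was at 249 and 257 CPM in KO22 against 144 and 149 CPM in WT with DMSO, and at 207 and 216 CPM against 154 and 156 CPM with GSK. The differences were 0.77 ± 0.04 (log2, SE; edgeR adjusted p = 9.2e-26) and 0.48 ± 0.04 (adjusted p = 1.87e-15). Scrn1, across the gap, was at 6.40 and 5.74 CPM in KO22 against 8.66 and 8.54 CPM in WT with DMSO (-0.52 ± 0.14, edgeR adjusted p = 0.00173), and at 17.9 and 19.1 CPM against 19.3 and 20.5 CPM with GSK, which was not called. Tmf1 was at 44.0 and 43.4 CPM against 31.0 and 31.2 CPM with DMSO (0.47 ± 0.07, edgeR adjusted p = 7.97e-08) and at 36.4 and 40.1 CPM against 32.5 and 31.0 CPM with GSK (0.30 ± 0.07, adjusted p = 0.00114). Eogt, 3.82 kb before it, was at 11.7 and 11.7 CPM against 11.1 and 10.6 CPM with DMSO, which was not called, and was higher in KO22 with GSK (0.44 ± 0.15, edgeR adjusted p = 0.0254).

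The edges from KO22 with DMSO were then applied to the libraries that had not set them, joining left and right as 283 outer members. Outer members stood at 0.48 and middle members at 0.04 in Dux-KO clone 15. The same pair was 0.56 and 0.03 in Dux-KO clone 52 and 0.49 and 0.04 in the library labelled Dux n=1 clone 40. Against WT with GSK, KO22 GSK libraries had 0.51 and 0.51 for outer members and -0.14 and -0.13 for middle members. Outer members were above 0 in 80.6% of cases in Dux-KO clone 15, 90.8% in Dux-KO clone 52, 89.0% in the library labelled Dux n=1 clone 40 and 94.0% and 92.9% in KO22 with GSK. Against WT with DMSO, the reference of the treated set, the KO22 GSK libraries had 82.0% and 82.7%, with outer medians of 0.46 and 0.49 and middle medians of -0.05 and -0.12. WT with GSK was added as a reference after the data were seen. The outer medians correspond to ratios of 1.39, 1.47, 1.401 and, against WT with GSK, 1.42 and 1.42, where a ratio of 3 to 2 is 0.585 on the log2 scale. The left and right ends did not stand far apart: 0.51 and 0.46 in Dux-KO clone 15, 0.56 and 0.55 in Dux-KO clone 52 and 0.50 and 0.48 in the library labelled Dux n=1 clone 40. Outer members were at -0.03 and middle members at 0.01 for the library labelled Dux-KO clone 22.

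**Figure D3:**
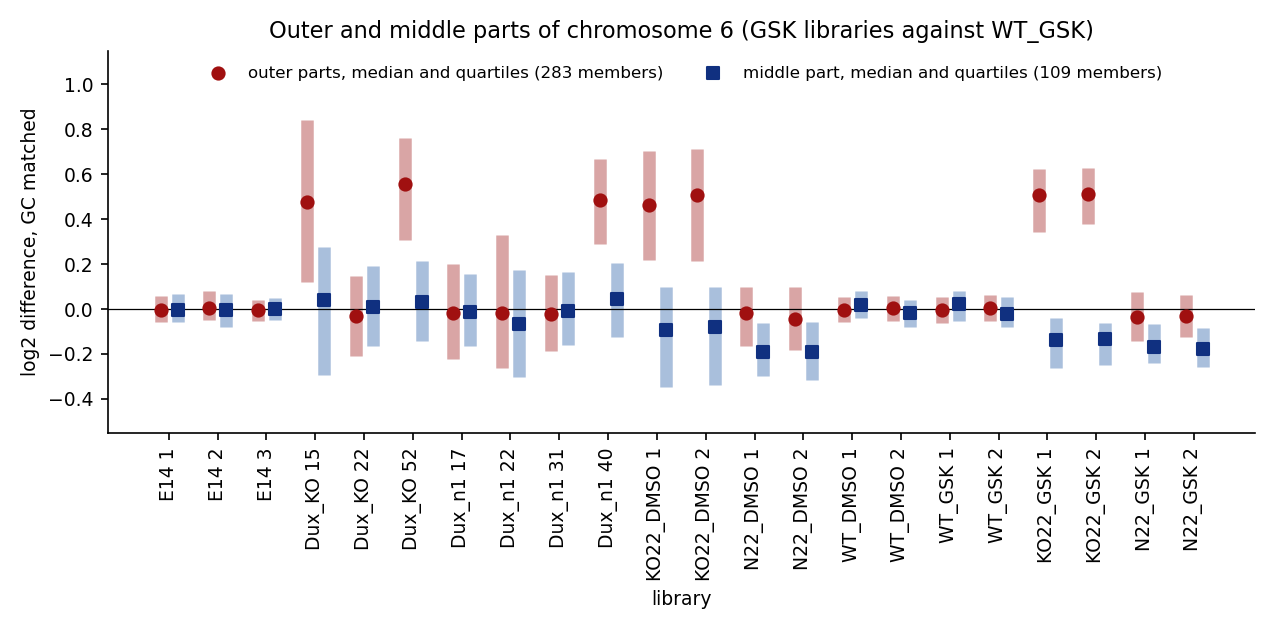
Median (points) and quartiles (bars) of the log2 difference of outer and of middle members in each library, relative to genes of equal GC content, with GSK libraries set against WT with GSK. Outer members lie at 0.46 to 0.56 in the raised libraries while middle members lie between -0.14 and 0.04.

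The outer shift was then read by expression level. With outer members split at 30.1 and 86.5 CPM into sets of 94, 94 and 95, KO22 DMSO replicate 1 gave 0.44, 0.44 and 0.48 and replicate 2 gave 0.51, 0.46 and 0.52 from low to high. Dux-KO clone 52 gave 0.59, 0.59 and 0.47, and the library labelled Dux n=1 clone 40 gave 0.44, 0.53 and 0.47. Dux-KO clone 15 varied more, at 0.50, 0.61 and 0.38.

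Gene by gene, 237 of 392 members were higher and 64 lower in KO22 than in WT with DMSO at an edgeR adjusted p below 0.05 (Benjamini-Hochberg over all 16641 genes tested). Over all genes tested, 23.4% were higher and 28.5% lower. Over the genes of the other autosomes at 8 CPM or more, 30.6% were higher and 34% lower, with a median of -0.02 against 0.32 for members. With GSK, 245 members were higher in KO22 than in WT and 38 were lower, against 12.3% and 10.1% of all genes and 17.3% and 11.7% of the expressed genes of other autosomes. Of the 283 outer members, 216 were higher and 21 lower with DMSO, and 244 were higher and 3 lower with GSK. Of the 109 middle members, 21 were higher and 43 lower with DMSO, and 1 was higher and 35 were lower with GSK. The edges were set on the DMSO libraries, and the GSK libraries did not place them. Across both conditions, 206 of 283 outer members were higher in KO22 in both, 3 were lower in both and 29 were higher in neither. Of the 109 middle members, 0 were higher in both and 23 were lower in both. The share of all genes called in both conditions was not counted. The summed fibroblast markers were higher in KO22 too (37.8 to 38.2 CPM against 22.1 to 26.5 CPM in WT with GSK), mostly through Thy1, and their part in these counts was not tested.

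**Figure D4:**
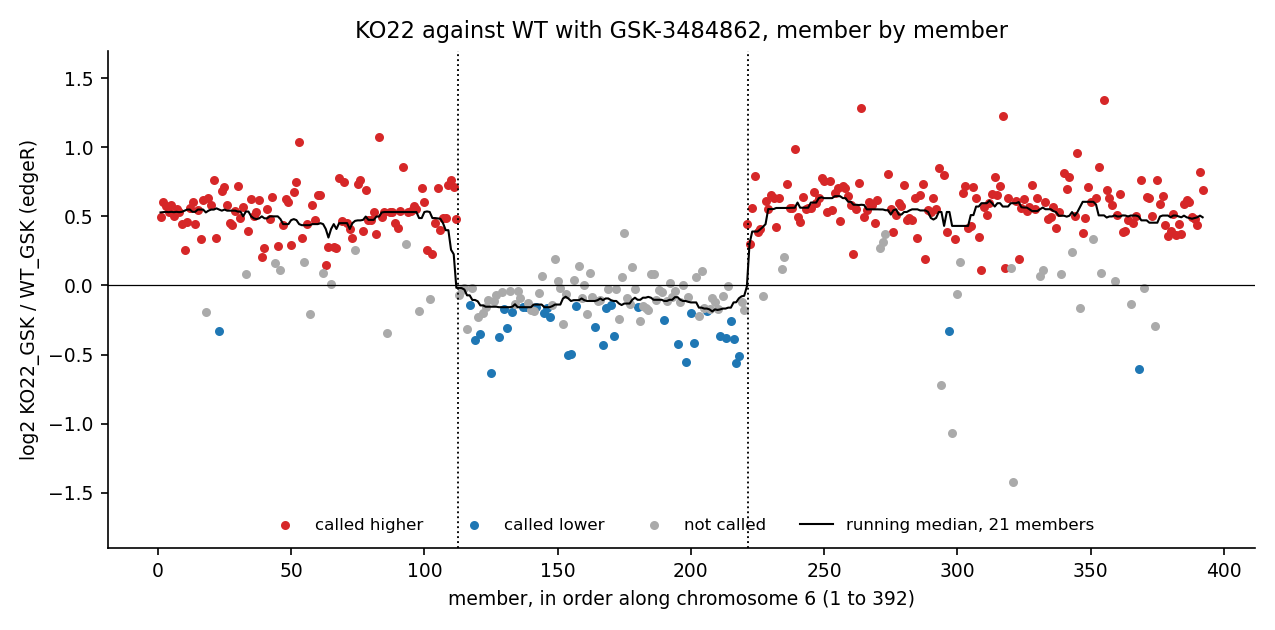
Log2 difference (edgeR) of each member between KO22 and WT with GSK, in order of gene start, with called members in colour, the running median as a line and the edges dotted. Of the outer members 244 are called higher, and the 109 middle members scatter around or below 0.

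Most chromatin and transcription regulators were higher in KO22, as were most outer members. Of 16 members (15 of them outer), 12 were higher and 1 lower in KO22 with DMSO (median 0.39), and 14 were higher and 0 lower with GSK (median 0.43). Over all outer members, 76.3% were higher with DMSO and 86.2% with GSK, and the list was near those shares. In untreated Dux-KO, which includes the library labelled clone 22 without the shift, 1 was higher and 1 lower (median -0.15). Cbx3, which encodes the heterochromatin protein HP1 gamma, was at 204 and 227 CPM in KO22 against 152 and 147 CPM in WT with DMSO, and at 182 and 192 CPM against 142 and 132 CPM with GSK. KO22 lay above WT in every library, by 0.51 ± 0.05 (log2, SE; edgeR adjusted p = 1e-13) and 0.49 ± 0.05 (adjusted p = 4.78e-12). Rybp, a subunit of Polycomb repressive complex 1, was at 169 and 179 CPM against 105 and 108 CPM with DMSO and at 169 and 177 CPM against 116 and 115 CPM with GSK. It differed by 0.69 ± 0.05 (log2, SE; edgeR adjusted p = 1.11e-20) and 0.61 ± 0.05 (adjusted p = 1.24e-17). The H3K27 methyltransferase gene Ezh2 was higher by 0.26 with DMSO and 0.53 with GSK, and Hnrnpa2b1, an RNA-binding protein gene beside Cbx3, by 0.41 and 0.40. Phc1, another Polycomb subunit, was the member called lower with DMSO (-0.17), and was higher with GSK (0.39). The remodeller gene Chd4 was not called with DMSO (-0.03) and was 0.13 higher with GSK.

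Most cell cycle, replication and repair genes were higher in KO22. Of 15 members (10 outer), 10 were higher and 2 lower in KO22 with DMSO (median 0.39), and 10 were higher and 0 lower with GSK (median 0.53). Of all outer members 76.3% were higher with DMSO and 86.2% with GSK, and of all middle members 19.3% and 0.917%. In untreated Dux-KO, 2 of the list were higher and 1 lower (median 0.20). Foxm1, a transcription factor of mitotic genes, was at 122 and 119 CPM in KO22 against 72.7 and 79.8 CPM in WT with DMSO. With GSK it was at 112 and 115 CPM against 80.7 and 75.9 CPM, and the groups did not overlap in either condition. The differences were 0.64 ± 0.05 (log2, SE; edgeR adjusted p = 7.62e-17) and 0.57 ± 0.05 (adjusted p = 6.47e-14). The condensin subunit gene Ncapd2 was higher by 0.24 and 0.61, the Fanconi anaemia gene Fancd2 by 0.19 and 0.53, and the cyclin D2 gene Ccnd2 by 1.41 and 0.63. The outer member Cdkn1b, a cell cycle inhibitor gene, was not called with DMSO (0.11) and was higher with GSK (0.72). Among middle members, Smarcad1 was higher with DMSO (0.46) and was not called with GSK (-0.10), and the 2 members called lower with DMSO lie there too. Mcm2, a subunit of the replicative helicase, was at 349 and 354 CPM in KO22 against 403 and 402 CPM in WT with DMSO (-0.21 ± 0.03, edgeR adjusted p = 1.67e-07), and Xpc, a DNA damage sensor gene, was lower by 0.56. Neither was called with GSK, where Mcm2 was at 352 and 346 CPM against 380 and 378 CPM.

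Of 6 growth factor signalling and small GTPase genes (5 outer), 3 were higher and 0 lower with DMSO (median 0.27), and 5 were higher and 0 lower with GSK (median 0.57). Over all outer members, 76.3% and 86.2% were higher. In untreated Dux-KO, 1 of the list was higher and 1 lower (median 0.10). Arf5, a small GTPase gene of the Golgi, was not called with DMSO (0.00) and was higher by 0.45 with GSK.

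Translation and export genes, 7 of 10 of which lie in the middle stretch, were divided: 3 were higher and 4 lower with DMSO (median -0.03), and 3 were higher and 4 lower with GSK (median -0.08). Over all middle members, 19.3% were higher and 39.4% lower with DMSO, and 0.917% and 32.1% with GSK. In untreated Dux-KO, 0 of the list were higher and 0 lower (median 0.03). Rpl32, a ribosomal protein gene of the right stretch, was at 702 and 720 CPM in KO22 against 517 and 509 CPM in WT with DMSO and at 777 and 725 CPM against 533 and 522 CPM with GSK. KO22 was above WT in each, by 0.45 ± 0.03 (log2, SE; edgeR adjusted p = 1.72e-19) and 0.55 ± 0.03 (adjusted p = 1.75e-22); pseudogene copies make the counts of ribosomal protein genes uncertain. Gars, the glycyl-tRNA synthetase gene of the middle stretch, was at 367 and 379 CPM against 486 and 478 CPM with DMSO and at 318 and 318 CPM against 361 and 358 CPM with GSK. It was lower by 0.39 ± 0.03 (edgeR adjusted p = 4.64e-16) and 0.14 ± 0.03 (adjusted p = 0.000725). The chaperonin gene Cct7 (-0.41 and -0.14) and the coatomer gene Copg1 (-0.27 and -0.25), both of the middle stretch, were also lower in both conditions.

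The neighbours of the imprinted Peg10 and Mest genes, which lie on the left stretch, were higher in KO22: 5 of 6 with DMSO (median 0.70) and 5 of 6 with GSK (median 0.51), with 0 lower. That is near the share over all left members, 78.6% with DMSO and 87.5% with GSK. In untreated Dux-KO, 0 of the 6 were called (median 0.18). The paraoxonase gene Pon2 was higher by 0.87 and 0.58, and Klhdc10, which encodes a substrate receptor of a ubiquitin ligase, by 0.56 and 0.48. Copg2 was not called with DMSO (-0.05) and was higher by 0.28 with GSK.

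Glycolysis and glucose uptake genes went against their position in KO22 with DMSO. Of 6 members (5 outer), 1 was higher and 4 were lower in KO22 with DMSO (median -0.52), and 2 were higher and 1 lower with GSK (median -0.04). Over all outer members, 76.3% were higher with DMSO and 86.2% with GSK. In untreated Dux-KO the list did not go this way, with 1 higher and 0 lower (median 0.48). Tpi1, which encodes triosephosphate isomerase, was at 454 and 438 CPM in KO22 against 640 and 647 CPM in WT with DMSO and at 197 and 187 CPM against 181 and 183 CPM with GSK. It was lower by 0.55 ± 0.04 (edgeR adjusted p = 1.67e-21) with DMSO and higher by 0.11 ± 0.04 (adjusted p = 0.0207) with GSK. In WT, Tpi1 fell by 1.89 ± 0.04 with GSK. The glucose transporter gene Slc2a3 was lower by 0.49 with DMSO and was not called with GSK (-0.06), and the hexokinase gene Hk2, of the middle stretch, gave -0.54 and -0.02 in the same way. Akr1b3, which encodes an aldose reductase, was the member higher in both (0.98 and 0.75). Gapdh ranged from 28.3 to 357 CPM without following the groups, has many pseudogene copies and was not called.

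Over all 392 members, those of the lists included, 34 differed by at least 2-fold between KO22 and WT with DMSO. Of these, 23 were called higher and 10 lower. The share of all genes that differed by as much was not counted. Among the highest were Emp1 (2.19), Tmem40 (2.06) and Prrt3 (1.88), and the lowest were Bhlhe40 (-3.06), Aass (-3.02), Stra8 (-1.69) and A2m (-1.63), all of them outer. A2m only just passed the floor of 8 CPM, at a mean of 8.002 CPM, so its membership rests on the libraries where it was high. The sizes of its differences are a description and support nothing. Emp1, an epithelial membrane protein gene, was at 89.1 and 86.3 CPM in KO22 against 20.2 and 17.7 CPM in WT with DMSO (2.19 ± 0.08, edgeR adjusted p = 2.37e-35) and at 71.9 and 79.5 CPM against 30.7 and 30.5 CPM with GSK (1.34 ± 0.07, adjusted p = 1.7e-24). In the untreated set it was at 91.4, 91.5 and 84.7 CPM in Dux-KO clones 15 and 52 and the library labelled Dux n=1 clone 40, and at 26.8 to 51.2 CPM in every other library. With GSK the highest were Emp1, Tmem40 (1.28), Lpar5 (1.23), which encodes a lysophosphatidic acid receptor, and Zyx (1.08), which encodes the focal adhesion protein zyxin. Among the lowest were Ldhb (-0.61), which is outer, and Magi1 (-0.56) and Abtb1 (-0.55) of the middle stretch.

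The outer members lower in KO22 in both conditions were Aass, Ldhb and Rimklb. Aass, which encodes the first enzyme of lysine breakdown, was at 1.78 and 2.02 CPM in KO22 against 14.3 and 16.3 CPM in WT with DMSO, and at 37.2 and 38.4 CPM against 49.7 and 47.5 CPM with GSK. The difference was -3.02 ± 0.15 (edgeR adjusted p = 8.9e-27) with DMSO and -0.33 ± 0.08 (adjusted p = 0.0017) with GSK. Among untreated libraries it was at 1.29, 2.38 and 2.68 CPM in Dux-KO clones 15 and 52 and the library labelled Dux n=1 clone 40, and at 5.88 to 10.0 CPM in the rest, so the libraries with raised chromosome 6 were the lowest for Aass. Ldhb, the B subunit gene of lactate dehydrogenase, was at 77.7 and 72.4 CPM against 203 and 200 CPM with DMSO and at 45.7 and 49.7 CPM against 75.2 and 73.6 CPM with GSK. It was lower by 1.44 ± 0.05 (edgeR adjusted p = 6.77e-35) and 0.61 ± 0.06 (adjusted p = 4.81e-14). Untreated Ldhb did not follow the split, at 183 and 91.0 CPM in Dux-KO clones 15 and 52 and at 159 CPM in Dux n=1 clone 22, against 63.9 to 66.1 CPM in E14. Rimklb, which encodes a glutamate ligase, was lower by 0.33 in each condition.

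Bhlhe40, a transcriptional repressor gene that responds to hypoxia, was lower in KO22 with DMSO and not called with GSK. It was at 9.74 and 8.85 CPM in KO22 against 73.0 and 80.2 CPM in WT with DMSO (-3.06 ± 0.09, edgeR adjusted p = 4.54e-39) and at 10.1 and 12.2 CPM against 9.73 and 10.0 CPM with GSK. Untreated levels ranged widely, with 78.3 CPM in Dux n=1 clone 22, 49.1 CPM in Dux-KO clone 15 and 4.70 to 17.9 CPM in the other libraries.

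**Figure D5:**
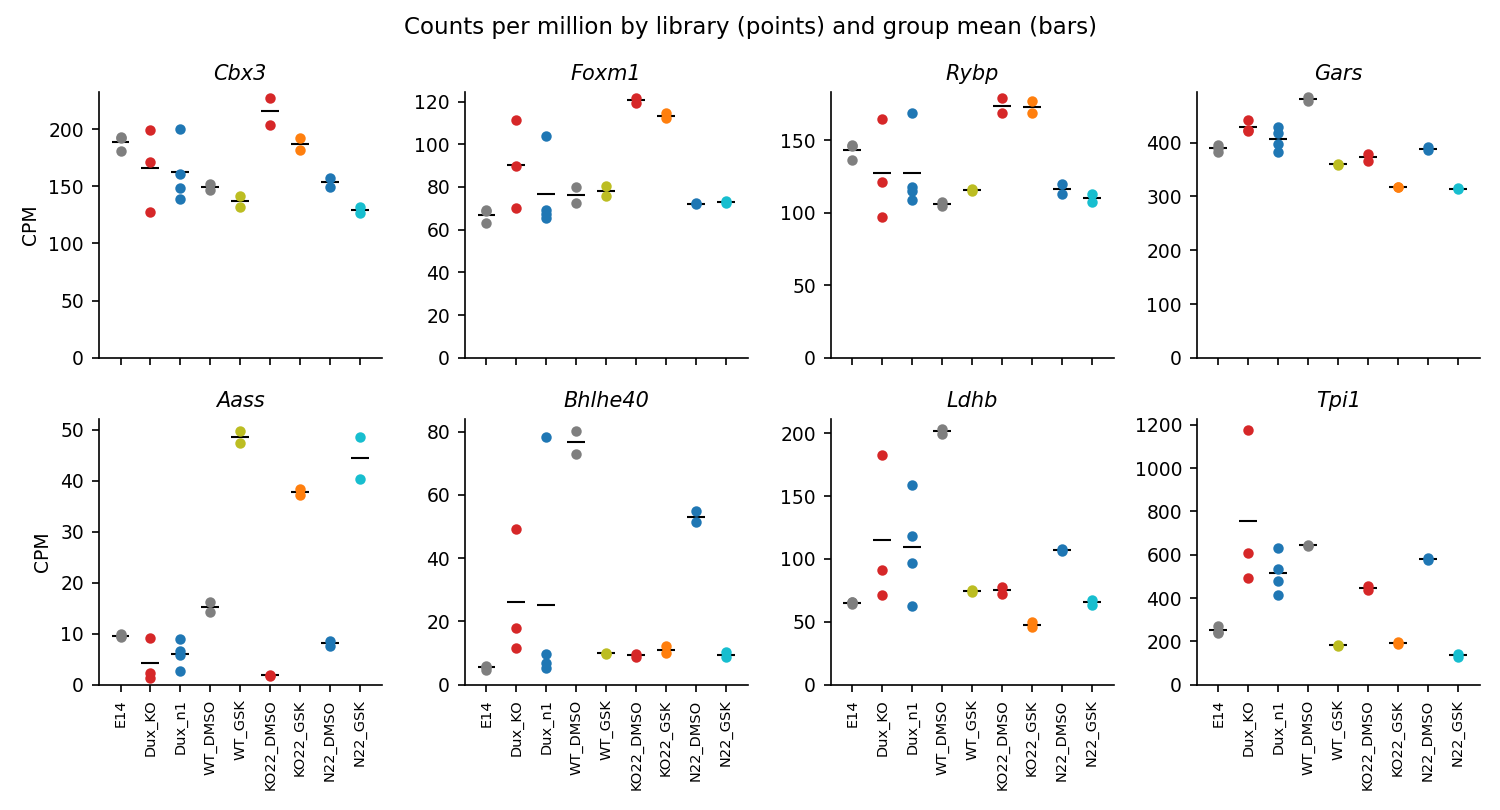
CPM of 8 members in every library (points) with the group mean (bar), for Cbx3, Foxm1, Rybp, Gars, Aass, Bhlhe40, Ldhb and Tpi1. Rybp is at 165 to 179 CPM in the KO22 libraries, Dux-KO clone 52 and the library labelled Dux n=1 clone 40, and Aass is below 3 CPM in the raised libraries without GSK.

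N22 was compared with WT, and then with KO22. Against WT with DMSO, 48 members were higher and 122 lower (median -0.08), where 11.5% and 13.9% of all genes and 17.1% and 18.7% of the expressed genes of other autosomes were. Without N22 replicate 1, 31 were higher, and the higher count over all genes was 1392, against 1910 with every library. With GSK, 22 were higher and 75 lower (median -0.06), against 5.05% and 4.6% of all genes. With any of the 4 GSK libraries of WT and N22 left out, 8 to 13 were higher, and 45 were lower without N22 replicate 2 and 49 without WT replicate 1. Over all genes, 478 to 512 were then higher, against 841 with every library. Lower were 472 without N22 replicate 2 and 471 without WT replicate 1, against 765. The lower members were most frequent in the middle stretch, where 54 of 109 were lower with DMSO (5 higher, median -0.19) and 39 of 109 with GSK (3 higher, median -0.16), and 26 were lower in both. Of 283 outer members, 68 were lower and 43 higher with DMSO (median -0.04), and 36 were lower and 19 higher with GSK (median -0.03). Of these outer members, 23 were lower in both, and the share of all genes lower in both was not counted. By library, the middle stretch stood at -0.19 and -0.19 and the outer members at -0.02 and -0.05 in N22 with DMSO. KO22 had middle values of -0.09 and -0.08 with DMSO and shares the WT libraries with N22, so a lower middle in the clones and a higher middle in WT cannot be told apart.

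Middle members differed in both directions in N22. Trh was higher with DMSO (0.81) and with GSK (0.28), and Smarcad1 was 0.16 higher with DMSO and lower with GSK (-0.20). Gars was at 391 and 387 CPM in N22 with DMSO and at 314 and 315 CPM with GSK, below WT by 0.31 and 0.18. Mcm2 was at 333 and 331 CPM and at 318 and 317 CPM, below WT by 0.28 ± 0.03 and 0.24 ± 0.03 (log2, SE). Cct7 was below WT by 0.35 and 0.20, and the oligosaccharyltransferase gene Rpn1 by 0.35 and 0.13. The translation list as a whole had 1 member higher and 7 lower with DMSO (median -0.20) and 1 higher and 5 lower with GSK (median -0.14). Over all middle members, 49.5% were lower in N22 with DMSO and 35.8% with GSK. Of the outer genes higher in KO22, Foxm1 was at 71.9 and 72.3 CPM and Cbx3 at 158 and 149 CPM in N22 with DMSO, and neither was called. Others were higher in N22 as well, among them Ccnd2 (1.01), Mitf (0.58), a transcription factor gene, and Cnot4 (0.36), while Ncapd2 (-0.23) was lower.

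The largest differences between N22 and WT with DMSO were Prrt3 (1.04), Ccnd2 (1.01), Trh (0.81), the thyrotropin-releasing hormone gene of the middle stretch, and Lpar5 (0.73) among the higher members. The lower ones were Ldhb (-0.91), Aass (-0.91), Rab11fip5 (-0.90), an endosome recycling gene, and Klf15 (-0.88), a Krüppel-like factor gene. With GSK they included Prrt3 (0.61), Atf7ip (0.45), Zfp212 (0.31) and Tra2a (0.29), and, among the lower, Rbpj-ps3 (-0.81), Adamts9 (-0.79) and Rimklb (-0.70). Against KO22 with DMSO, 35 members were higher in N22 and 271 lower (median -0.41), where 21.1% and 18% of all genes were. Of the outer members, 237 of 283 were lower in N22 (median -0.51), and of the middle members 34 of 109 were (median -0.06). Bhlhe40 (2.53), Aass (2.11) and A2m (1.66) were among the highest in N22, and Emp1 (-2.02), Tmem40 (-1.70) and Cald1 (-1.38) among the lowest. The limit given above for A2m holds here too.

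In the untreated set, where the clones of a genotype differed among themselves, few members passed the test. Dux-KO was higher than E14 in 59 members (15.1%) and lower in 20 (5.10%), where 9.26% of all 14796 genes tested were higher and 11.1% lower in edgeR. Outer members made up 50 of the 59, and 10 of the 20. The count of higher members was 105 without the library labelled Dux-KO clone 22, 31 without clone 15, 27 without clone 52 and 14, 27 and 18 without E14 libraries 1, 2 and 3. Over all genes tested, the higher count moved too, from 1370 with every library to 1685, 832 and 965 without clones 22, 15 and 52. Without E14 libraries 1, 2 and 3 it was 373, 701 and 442. The count of lower members was 9 without clone 15 and 4, 9 and 3 without those E14 libraries. Over all genes, 1646 were lower with every library, 1145 without clone 15 and 558, 1038 and 729 without those E14 libraries. Dux n=1 was higher than E14 in 19 members (4.85%) and lower in 5 (1.28%), against 4.88% and 4.28% of all genes, and leaving out any E14 library or Dux n=1 clone 17 brought the higher count to between 1 and 5. The higher count over all genes fell as well, from 722 to 16, 165 and 29 without E14 libraries 1, 2 and 3 and to 193 without clone 17. Dux n=1 was lower in 14 members without the library labelled clone 40 and in 0 to 3 without any other library. Over all genes, 417 were lower without the library labelled clone 40, against 633 with every library. The lowest differences in Dux-KO among members of at least 20 CPM were those of Zfp638 and Smarcad1, in the middle stretch, and of Resf1, an outer member. Zfp638, which encodes a DNA-binding zinc finger protein, was at 22.3, 38.5 and 46.2 CPM in Dux-KO against 75.5 to 87.7 CPM in E14 (-1.23 ± 0.21, edgeR adjusted p = 0.00428). Resf1, which encodes a retroelement silencing factor and lies on the right stretch, was at 44.9, 104 and 142 CPM against 200 to 227 CPM (-1.17 ± 0.31, edgeR adjusted p = 0.0216). Smarcad1, a chromatin remodeller gene of the middle stretch, was at 36.4, 71.1 and 77.9 CPM against 122 to 139 CPM (-1.12 ± 0.27, edgeR adjusted p = 0.0157). All 3 Dux-KO libraries lay below all E14 libraries for each of them. With a GC offset the differences were -0.68 for Zfp638, which stayed called, -0.72 for Resf1 (edgeR adjusted p = 0.1409) and -0.64 for Smarcad1 (adjusted p = 0.1412). The calls of Resf1 and Smarcad1 were also lost without a filter on low counts (edgeR adjusted p = 0.1087 and 0.06366), without E14 library 1 (0.08335 and 0.06829) and without E14 library 3 (0.06467 and 0.05271).

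GSK changed many members in every genotype without moving the chromosome as a whole. In WT, 92 members rose and 154 fell (median -0.05), where 28.7% of all genes rose and 28.1% fell. In KO22, 87 rose and 136 fell (median -0.06), against 24.8% and 21.2%, and in N22 106 rose and 146 fell (median -0.05), against 26.9% and 26%. Among the expressed genes of other autosomes, 27.9% rose and 38.2% fell in WT, 24% and 30.6% in KO22 and 25.6% and 36.9% in N22. The members' own shares were near these, at 23.5% and 39.3%, 22.2% and 34.7%, and 27.0% and 37.2%. The largest responses in WT were of Prrt3 (2.18), Eps8 (1.97), which encodes an actin capping protein, Klhl42 (1.76) and the testis tubulin gene Tuba3a (1.73), and of Bhlhe40 (-3.02), A2m (-2.91), the alpha-2-macroglobulin gene, Tpi1 (-1.89) and Stra8 (-1.71), a gene needed for entry into meiosis. In KO22 they included those of Aass (4.30), Eps8 (2.16), Repin1 (2.03) and Podxl (1.66), and of A2m (-2.003), Ccnd2 (-1.58) and Etv6 (-1.43). In N22 they included those of Aass (2.39), Tuba3a (2.21), Klhl42 (1.83) and Prrt3 (1.75), and of A2m (-3.43), Bhlhe40 (-2.52) and Tpi1 (-2.15). Because A2m only just passed the CPM floor, its responses are a description and support nothing.

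Aass and Bhlhe40 show how the KO22 exceptions met the response. Aass rose from 14.3 and 16.3 CPM to 49.7 and 47.5 CPM in WT, from 1.78 and 2.02 CPM to 37.2 and 38.4 CPM in KO22, and from 7.70 and 8.60 CPM to 48.5 and 40.3 CPM in N22. The responses were 1.60 ± 0.09, 4.30 ± 0.14 and 2.39 ± 0.10 (log2, SE), and that of KO22 exceeded that of WT by 2.69 (edgeR adjusted p = 6.17e-20 for the interaction). Aass passed the floor of 8 CPM only through its GSK libraries, so the size of its response is a description and supports nothing. Bhlhe40 fell in WT (-3.02 ± 0.09) and in N22 (-2.52 ± 0.09) and was not called in KO22 (0.25 ± 0.11, edgeR adjusted p = 0.0625), where it was already at 9.74 and 8.85 CPM with DMSO.

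Promoter CG content was counted in the same 250-base windows for the 316 of 392 members with a RefSeq entry, searching for the letters CG, which read alike on both strands. The median was 16 CG in members (16 in outer and 15 in middle members) and 17.5 in 6734 genes of the other autosomes. In WT, members that rose with GSK had a median of 13.5 (80 of 92 with a window), members that fell had 17 (126 of 154), and members not called had 16.5 (110 of 146). Of the printed runs, Aass with 4, Prrt3 with 11, Ldhb with 14 and Plekha8 with 15 lie below the members' median, and Tmf1 with 29 lies above it. Of the windows on other autosomes, 0.386% held no CG, and of the members' windows 0.633% held none.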

How the data were processed

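Libraries were made with a VAHTS Universal V6 kit from 1 ug of total RNA of cells in serum with LIF, per the labels' protocols. The submitters' processing notes list the build GRCm38 and the tools featureCounts 2.0.1, HISAT2 2.1.0, fastp 0.23.2 and DESeq2 1.40.2. The authors deposited raw counts of paired fragments per Ensembl 84 gene, with no multi-mapping fragments and no use of strand, per the file headers, so genes with near-identical copies and overlapping genes are uncertain. Groups came from sample titles, and the total counts per library set the precision.

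Here, symbols and GC content came from GENCODE M21 (47224 of 47729 identifiers matched). Each set was fitted in 1 edgeR 4.0.16 model in R 4.3.3 (robust quasi-likelihood test after TMM scaling, low counts removed by filterByExpr at 10, no replicate block), with 14796 genes tested in the untreated set and 16641 in the treated set, all 392 members among them. Adjusted p-values are edgeR's, over all genes tested. Fold changes are log2 with the SE. Shifts used a pseudocount of 1 CPM. The test was checked on simulated counts. Members and gene lists were chosen with earlier results of these data known. Named were the 3 highest and all called genes of each list (fewer are printed), the 4 largest called changes each way per treated comparison, and the 3 lowest members of at least 20 CPM in Dux-KO. Some genes that this rule names are not reported here. Alternatives were other scalings, floors, pseudocounts, GC offsets, DESeq2 1.42.0, a replicate block and each library left out. Libraries of 1 group differed beyond sampling noise (chi-square per degree of freedom 2.72 to 58.5).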

Additional observations from a re-analysis of the deposited data

Results flagged for a closer look

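The library labelled Dux n=1 clone 40 stood apart from the other Dux n=1 libraries, with a gap to its nearest neighbour larger than Dixon's 95% critical value for 4 samples. This held for its shift (0.30), its shift against genes of equal GC content (0.39), its outer members (0.49) and the members' share of counts (4.67%). It also held for the CPM of Tax1bp1 (222), Rybp (169), Foxm1 (104), Rpl32 (899.7) and Resf1 (162). Dux n=1 clone 22 stood apart in the same way for Bhlhe40 (78.3 CPM). In all, 22 groups of values were looked at and 10 were flagged. Chance flags about 1 in 20 independent groups, and these are not independent: the 9 flags of clone 40 are 1 observation read through related measures and through genes chosen after their values were seen. They restate the raised level with which chromosome 6 was picked and are a description that supports nothing.

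The response to GSK differed between KO22 and WT for some named members, by an edgeR interaction test adjusted over all genes. Members were flagged at an adjusted p below 0.05 and a difference in response of at least 2-fold. N22 minus WT was screened in the same way, and no member was flagged. KO22 minus WT was 2.69 for Aass (adjusted p = 6.17e-20), 3.27 for Bhlhe40 (adjusted p = 1.70e-28), 1.34 for Podxl, a sialomucin gene (adjusted p = 2.88e-15), and 1.48 for Stra8 (adjusted p = 4.96e-11). It was -1.11 for Prrt3 (adjusted p = 7.38e-06). The Aass value is a description, since that gene passed the CPM floor only through its GSK libraries. The 2 KO22 libraries and the 2 WT libraries of each condition did not overlap in CPM for Podxl, which went from 15.5 and 16.04 to 49.4 and 51.0 CPM in KO22 and from 24.8 and 26.1 to 33.4 and 33.1 CPM in WT.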

How the results depend on the processing

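For KO22 with DMSO the shift was 0.287 with a floor of 4 CPM and 0.367 with a floor of 16. For KO22 with GSK it was 0.284 with a floor of 4, 0.234 with TMM scaling and no centring, and 0.398 against WT with GSK, a reference added after seeing the data. For N22 with DMSO it was -0.0666 and -0.0664 with floors of 4 and 16, -0.0715 uncentred, -0.0461 with TMM, -0.0614 with the named exclusions kept in, -0.0653 with a pseudocount of 0.1 and -0.075 with GC matching. For N22 with GSK it was -0.0734 and -0.0794 with floors of 4 and 16, -0.1416 with TMM, -0.0511 with exclusions kept in, -0.0671 matched on mean CPM and -0.0696 against WT with GSK. For WT with GSK it was -0.0972 with TMM.

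Leaving out each library gave shifts of 0.0785 to 0.2849 in Dux-KO, -0.0578 to 0.0677 in Dux n=1, 0.3002 to 0.3452 in KO22 with DMSO, 0.3037 to 0.3246 with GSK, -0.0714 to -0.0609 in N22 with DMSO, -0.0725 to -0.055 with GSK and -0.0227 to 0.0058 in WT with GSK.

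Dux-KO members higher than E14 numbered 33 with a GC offset and 14 (without E14 library 1) to 105 (without the library labelled Dux-KO clone 22) with a library left out, and lower members 3 and 3 to 23. Dux n=1 higher members numbered 7 with a GC offset, 34 by DESeq2, 39 fitting the compared groups alone and 1 to 23 with a library left out. Lower ones numbered 3 with RLE factors, 1 with a GC offset, 12 by DESeq2, 14 with only the compared groups and 0 to 14 with a library left out, 14 being without the library labelled clone 40. The untreated counts of members therefore depend on the settings and on which libraries are included, as do the counts over all genes. With a GC offset, 583 of all genes were higher in Dux-KO and 178 in Dux n=1, against 1370 and 722 in the main fit. N22 against WT ranged from 31 to 35 higher with DMSO, and from 8 to 13 higher and 45 to 57 lower with GSK, when a library was left out, and DESeq2 gave 8 higher with GSK. KO22 against WT stayed at 221 to 231 higher and 59 to 64 lower with DMSO and at 233 to 235 and 28 to 33 with GSK.

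Replicate numbers do not pair the treated libraries (correlations of deviations -0.0168 to 0.0294 among the pairs of groups checked). With a replicate block, KO22 had 237 members higher and 64 lower with DMSO and 244 and 39 with GSK, and every other count of members also stayed within 1.5 times of its value. The sign of Chd4, which was not called in KO22 with DMSO, turned to 0.0096 without a filter on low counts, 0.0147 with a GC offset and 0.0089 with only the compared groups. The sign of Copg2, also not called, was -0.1171 without KO22 DMSO replicate 1 and turned to 0.0229 without replicate 2. Of 145 pairs of a named gene and a comparison, 18 lost a call under at least 1 alternative. Resf1 and Smarcad1 in Dux-KO lost theirs under 4 each. The cause was not tested.

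Depth limits single low members such as Scrn1 and Eogt more than the medians. Copy number was not measured, 1 clone stands for each genotype in the treated set, and untreated clones of a genotype disagree.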
